A study of Caenorhabditis elegans with 2 samples.

Results

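Of the 10461 peaks on the 6 nuclear chromosomes in the relaxed pooled list for CEH-32, 253 lay at transfer RNA (tRNA) genes. This is 2.42% (95% Wilson interval 2.14 to 2.73). The authors deposited that list as peaks and background, so a peak in it does not by itself show binding. A peak was counted when its summit, the base of highest signal, lay inside a gene annotated as tRNA or within 100 bp of one. Among the peaks of the list, the choice used the position of the summit alone and not its signal. The rule was set with earlier results of these data known. Together the 253 peaks reached 264 of the 612 nuclear tRNA genes, or 43.1% (39.3 to 47.1). Peaks of the stricter optimal list, described below, lay at 49 of the 612 (8.01%). A single summit lay near 2 tRNA genes in 13 cases, and 2 tRNA genes had 2 summits each.

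The study profiled CEH-32, a sine oculis type homeodomain protein that binds DNA, by chromatin immunoprecipitation and sequencing in Caenorhabditis elegans. There was 1 group with 2 biological replicates from separate biosamples: whole hermaphrodites of strain OP516, genotype unc-119(tm4063) III; wgIs516, at the L4 larval stage. They were taken at 52 hours after larvae that hatched from bleached embryos had been synchronised by starvation at L1. The integrated transgene wgIs516 stably expressed CEH-32 with a C-terminal GFP-FLAG tag, and an antibody to GFP pulled down the chromatin. The tagged copy is 1 transgenic line, and no wild-type, untagged or mutant group was analysed here. The control library was not used here, so no value was compared here with a background measured the same way. Whether the signal of the authors' peak caller already takes the control into account is not stated in the labels. Because whole worms were used, binding in few cells and weak binding in many cells cannot be told apart.

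Transfer RNA genes are transcribed by RNA polymerase III rather than by the polymerase that makes messenger RNA. Their promoter lies inside the gene: the A box and the B box are bound by the factor TFIIIC, which brings TFIIIB to the DNA just upstream of the start. The B box encodes part of the T loop of the tRNA, so its core is nearly the same in tRNAs for all amino acids. In C. elegans the genes are scattered over all chromosomes, many of them within protein-coding genes, and many are exact copies of each other.

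The sequences of 5 tRNA genes with strong peaks are shown because they carry the internal promoter element, whose presence near the summits is counted below. They are given 5′ to 3′ on the strand of the gene, on build ce11 (WBcel235), with the B box core in capitals. The core was searched as GTTCNANNC, where N is any base. The first gene encodes a valine tRNA at chrX:13307034-13307106, plus strand, and its summit fell on base 32 of the gene, upstream of the core at bases 53 to 61.
R04D3.t2: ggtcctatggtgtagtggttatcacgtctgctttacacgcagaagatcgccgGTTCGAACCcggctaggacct
The leucine tRNA gene at chrX:13665555-13665673, plus strand, has 2 exons and no identical copy in the genome, and its summit fell on base 48, with the core at bases 99 to 107.
C04A11.t1: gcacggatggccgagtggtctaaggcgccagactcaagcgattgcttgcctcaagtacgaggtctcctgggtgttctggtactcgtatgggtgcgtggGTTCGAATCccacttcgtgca
The glutamine tRNA gene at chrX:410391-410462, plus strand, is 1 of 15 identical copies, and its summit lay 72 bp upstream of it.
R04A9.t1: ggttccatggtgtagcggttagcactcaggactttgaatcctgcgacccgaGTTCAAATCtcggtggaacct
The alanine tRNA gene at chrX:9743589-9743660, plus strand, is 1 of 8 identical copies, and its summit lay 6 bp downstream of it.
F15G9.t1: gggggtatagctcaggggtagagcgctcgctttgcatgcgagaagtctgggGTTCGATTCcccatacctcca
The isoleucine tRNA gene at chrV:12002176-12002260, plus strand, has 2 exons and no identical copy, and its summit lay 23 bp upstream of it.
F57F5.t1: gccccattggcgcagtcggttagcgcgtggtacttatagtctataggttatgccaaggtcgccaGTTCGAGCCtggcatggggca
This core was present on the strand of the gene in 587 of the 612 tRNA genes (95.9%). A peak lay at 255 of the 587 genes with the core (43.4%) and at 9 of the 25 without it (36.0%, Wilson interval 20.3 to 55.5). Nearly all tRNA genes hold the core, and the wide interval of the few without it includes the share of the others.

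The median signal of peaks at tRNA genes was higher than that of other peaks in each list, a difference that was not tested. Their median pooled signal, in the units of the authors' peak caller, was 52.2 (lowest 27.1, highest 217) against 33.3 for the other 10208 nuclear peaks. In the separate list of replicate 1 the median signal at the 186 matched members was 28.1, and 19.3 at the matched other peaks. In that of replicate 2 it was 33.6 at 197 members and 23.9 at the others. The matched members lay high in both lists, at a median percentile of 91.6 among all peaks of replicate 1 and 92.3 among those of replicate 2. Members without a matched summit have no percentile. It was not computed for the matched other peaks, whose medians also lay above those of the whole lists. The scale of signal differs between lists, with a median over all nuclear peaks of 16.2 in replicate 1 and 20.7 in replicate 2, so levels are read within a list.

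None of the 25 strongest nuclear peaks was at a tRNA gene (upper limit on the share 12%). Of the peaks ranked 26 to 100, 8 of 75 were (10.7%), and of those ranked 101 to 388, 36 of 288 (12.5%). The share was 67 of 612 at ranks 389 to 1000 and 72 of 1500 (4.8%) at ranks 1001 to 2500. It was 34 of 5461 (0.623%) in the weakest bin. The highest observed shares were thus at ranks 26 to 1000. The top 25 are too few to place their share below these.

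**Figure D1:**
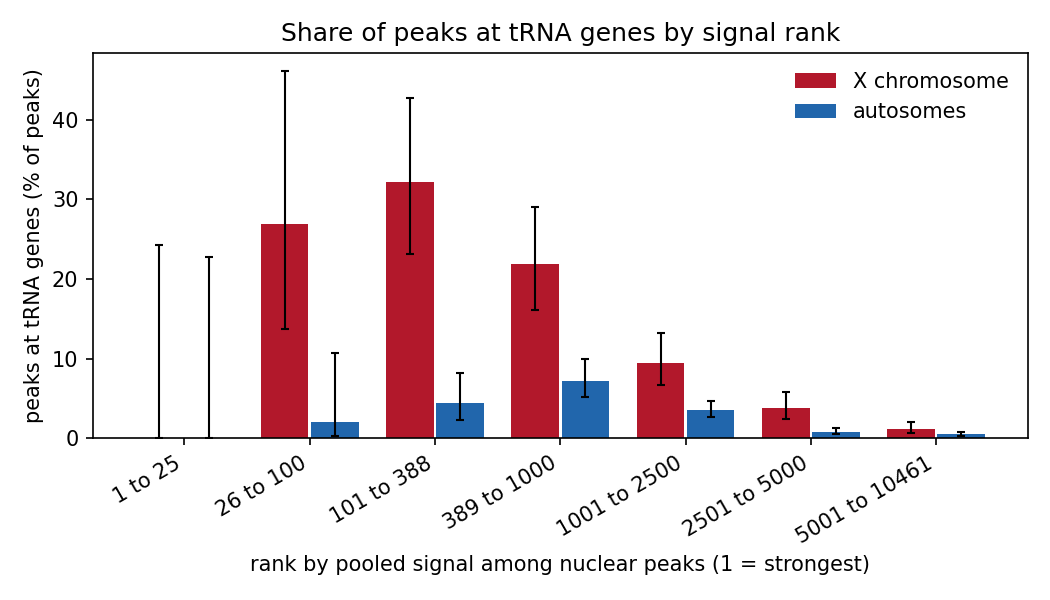
Share of nuclear pooled peaks at tRNA genes (%, vertical axis) in bins of rank by pooled signal, with 1 the strongest, for the X chromosome and the autosomes; bars are shares and lines 95% Wilson intervals, which cover counting error only. On X the share was highest at ranks 101 to 388, with 27 of 84 peaks (32.1%), against 9 of 204 (4.41%) on the autosomes. In the top 25 it was 0 of 12 peaks on X and 0 of 13 on the autosomes.

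The optimal list holds the peaks that the authors kept after comparing the ranks of peaks between replicates. Its 388 nuclear peaks were the 388 strongest of the pooled list, so membership is also a cut on pooled signal. It held 44 of the 253 members (17.4%, 13.2 to 22.5), while 3.71% of all nuclear pooled peaks were in it. These 44 peaks were 11.3% of the nuclear optimal peaks (8.56 to 14.9) and reached 49 tRNA genes. Their median signal was 99.6, close to the 107 of the other 344 optimal peaks. The strongest member outside the list was at C16B8.t1, a proline tRNA gene on X chosen after its values were seen, with a signal of 81.5 at rank 390 and no summit within 100 bp in either replicate list.

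The X chromosome carried 130 of the 253 members (51.4%, 45.3 to 57.5) and 19.9% of the other nuclear peaks. It also carries 276 of the 612 tRNA genes (45.1%), a value just under that interval. The median signal was 58.3 for members on X and 50.2 on the autosomes, and outside the optimal list it was 49.2 and 48.9. The wider contrast was among the strongest peaks. In the optimal list were 34 of 130 members on X (26.2%, 19.4 to 34.3), where 5.65% of all pooled peaks on X were optimal. On the autosomes it was 10 of 123 members (8.13%, 4.48 to 14.3), where 3.2% of all pooled peaks were. The optimal members were therefore mostly on X, with 34 of 44 (77.3%, 63.0 to 87.2), against 88 of the 344 other optimal peaks (25.6%).

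Counted over genes, an optimal peak lay at 38 of 276 tRNA genes on X (13.8%, 10.2 to 18.3) and at 11 of 336 on the autosomes (3.27%, 1.84 to 5.77). Chromosome V had 4 such genes, II had 3, IV had 2 and I and III had 1 each. Any peak of the pooled list lay at 135 of 276 genes on X (48.9%) and 129 of 336 on the autosomes (38.4%). In the list of replicate 1 these shares were 50.7% and 36.0%, and in that of replicate 2 they were 41.7% and 34.2%. X was higher in each list, by less in replicate 2. Genes are not replicates of a condition, and the difference between X and the autosomes was not tested.

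**Figure D2:**
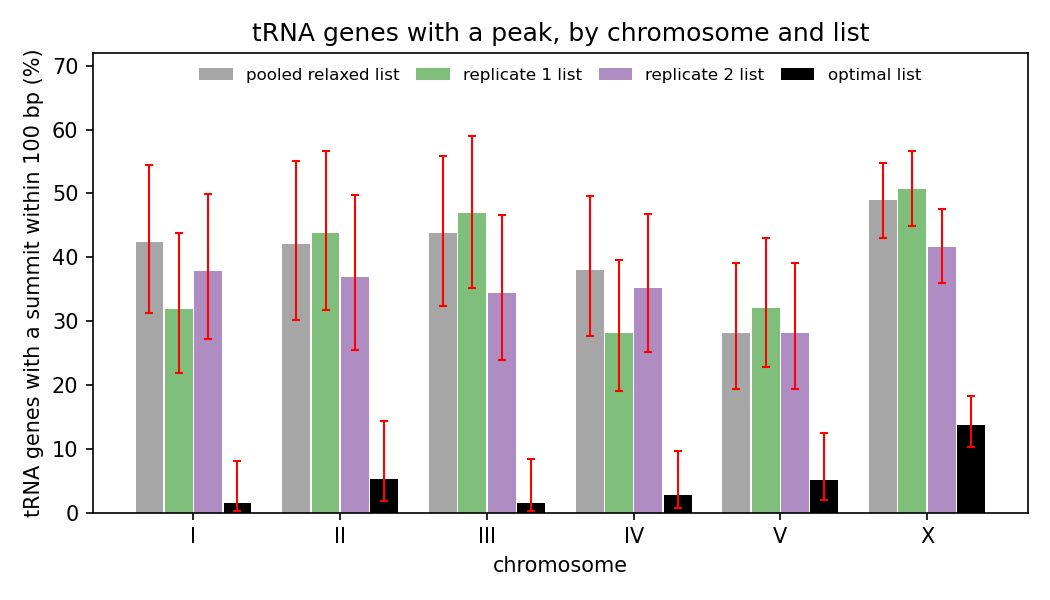
Share of the tRNA genes of each chromosome with a summit within 100 bp (%, vertical axis) in the pooled relaxed list, in each replicate list and in the optimal list; bars are shares and red lines 95% Wilson intervals, which cover counting error only. In the optimal list X stands at 13.8% and the autosomes at 1.52% to 5.26%. There the interval of X (10.2 to 18.3) overlaps those of II (1.81 to 14.4) and V (2.01 to 12.5). In the list of replicate 1 the interval of X (44.9 to 56.6) lies above those of I, IV and V and overlaps those of II and III. In the list of replicate 2 the interval of X (36.0 to 47.6) overlaps that of every autosome.

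The strongest member lay at chrX:3036018-3036127 next to M02F4.t2 (WBGene00023111), a glutamate tRNA gene. The peak caller gave a signal of 217 to the pooled peak, 122 to that of replicate 1 and 104 to that of replicate 2, and it ranked 28 of all nuclear peaks. Its region is 110 bp wide and its summit lay 58 bp upstream of the gene, near 2 tRNA genes. The other 252 members have regions of 420 bp.

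The next on X was F41D9.t3, an asparagine tRNA gene in the sulfate permease family gene sulp-3, on the opposite strand. The peak caller gave a signal of 184 to the pooled peak, 71.2 to that of replicate 1 and 112 to that of replicate 2, at chrX:8404269-8404688. The valine gene R04D3.t2, shown above, followed with a pooled signal of 161, with 82.4 for replicate 1 and 80.6 for replicate 2. The single-copy leucine gene C04A11.t1 had a pooled signal of 158, with 76.1 for replicate 1 and 89.2 for replicate 2. The glutamine gene R04A9.t1 had a pooled signal of 152, with 84.4 for replicate 1 and 69.5 for replicate 2. These 5 genes serve 5 different amino acids, and all had summits in both replicates. Of the 10 strongest members, 9 were on X.

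The strongest autosomal member lay at chrV:15464915-15465334 inside T23F1.t1, a lysine tRNA gene. The pooled signal was 148, with 64.6 for replicate 1 and 83.7 for replicate 2. The second, K08E7.t1, is a lysine tRNA gene at chrIV:12594740-12594812, within pgp-1, which encodes an ABC transporter of the P-glycoprotein family. The peak caller gave a signal of 102 to the pooled peak, 38.3 to that of replicate 1 and 64.4 to that of replicate 2. The isoleucine gene F57F5.t1, shown above, had a pooled signal of 99.1, with 36.5 for replicate 1 and 70.4 for replicate 2. The alanine gene F15B9.t1 on chromosome V, within the formin gene inft-2, had a pooled signal of 92.4, with 53.0 for replicate 1 and 43.2 for replicate 2. The arginine gene F47G6.t1 on chromosome I, within spe-15, had 91.5 in the pooled list and 64.8 in replicate 2, with no summit within 100 bp in replicate 1. In replicate 1 the autosomal values (36.5 to 64.6) lay below those of the 5 strongest on X (71.2 to 122), and in replicate 2 the ranges overlapped, at 43.2 to 83.7 and 69.5 to 112. Both sets were chosen by pooled signal, so this is a description.

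Other optimal members included sup-7, a tryptophan tRNA gene on X known from amber suppressor alleles. The peak caller gave a signal of 100 to the pooled peak, 47.7 to that of replicate 1 and 56.2 to that of replicate 2. F38G1.t2, an aspartate tRNA gene, lies on the opposite strand within egl-17, which encodes a fibroblast growth factor. The pooled signal was 95.8, with 32.1 for replicate 1 and 61.3 for replicate 2. C42D8.t1, an isoleucine tRNA gene on X, had 23.3 in replicate 1 and 69.8 in replicate 2, a ratio of 2.99 where the median member with both had 1.23. At the other end, the 3 weakest members were B0344.t2 (isoleucine, X) at 27.1, R02E12.t1 (glycine, X) at 27.3 and Y105C5A.t2 (alanine, IV) at 27.3. None of these 3 had a summit in replicate 1, and R02E12.t1 had none in replicate 2 either.

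A larger share of members than of all peaks had a summit in both replicate lists, a difference that was not tested. A summit within 100 bp was present in both replicates for 146 of 253 members (57.7%, 51.6 to 63.6), where 24.2% of all nuclear pooled peaks had one. It was present in replicate 1 only for 40 members, in replicate 2 only for 51 and in neither for 16. On X the share in both was 84 of 130 (64.6%) and on the autosomes 62 of 123 (50.4%). In the optimal list 41 of the 44 members (93.2%, 81.8 to 97.7) and 315 of the 344 other peaks (91.6%, 88.2 to 94.1) were in both. The intervals overlap there. Outside the optimal list it was 105 of 209 members (50.2%). The 3 optimal members missing from a list were F12D9.t6 and T07H6.t1, without replicate 2, and F47G6.t1, of which T07H6.t1 was named after its values were seen.

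Across the 146 members in both lists the signals of the replicates had a Pearson r of 0.658 and a Spearman rho of 0.499, given as a description. For the 2388 other peaks in both lists these were 0.805 and 0.495. On X, r was 0.691 (84 peaks) and on the autosomes 0.438 (62 peaks). In the optimal list r was 0.391 (41 peaks) and outside it 0.0413 (105 peaks). Both subsets are cut on pooled signal, which is made from both replicates, and nothing is read from these values. Replicate 2 had the higher value at 93 of 146 members, with a median ratio of replicate 2 to replicate 1 of 1.23 (0.465 to 3.37), and the ratio at other peaks was 1.22. These ratios include the difference in scale between the lists.

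**Figure D3:**
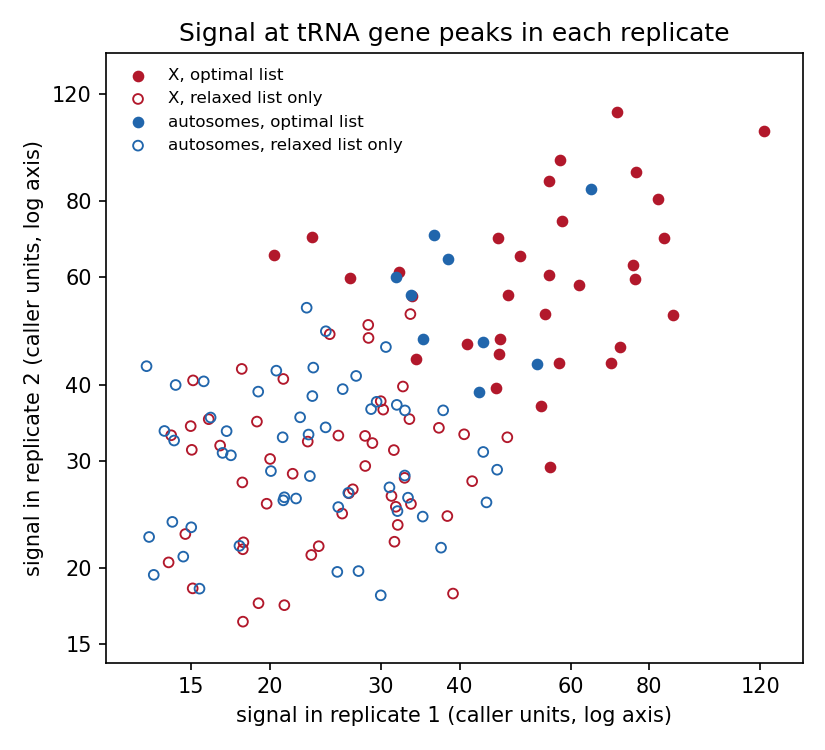
Signal in replicate 1 (horizontal, log axis) against replicate 2 (vertical, log axis), in the units of the authors' peak caller, for the 146 peaks at tRNA genes with a summit in both replicate lists; each point is 1 peak, coloured by chromosome and filled if in the optimal list. The filled points, 41 in number, lie toward the upper right and most are on X.

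Summits sat on the genes and just upstream of them. The median summit was 21 bp downstream of the 5′ end of the gene (range -99 to 173), and the median gene is 72 bp long. Of the 253 summits, 106 (41.9%) lay inside the gene, 97 (38.3%) upstream and 50 (19.8%) downstream. The rule admits 100 bp on either side, so this is the split within that window. The fullest 20 bp bins were 20 to 39 bp into the gene with 40 summits and 40 to 21 bp upstream of it with 37. Optimal members had a median position of 6.5 bp, with 20 upstream, 18 inside and 6 downstream. Median signal was 52.6 upstream, 54.3 inside and 47.6 downstream.

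**Figure D4:**
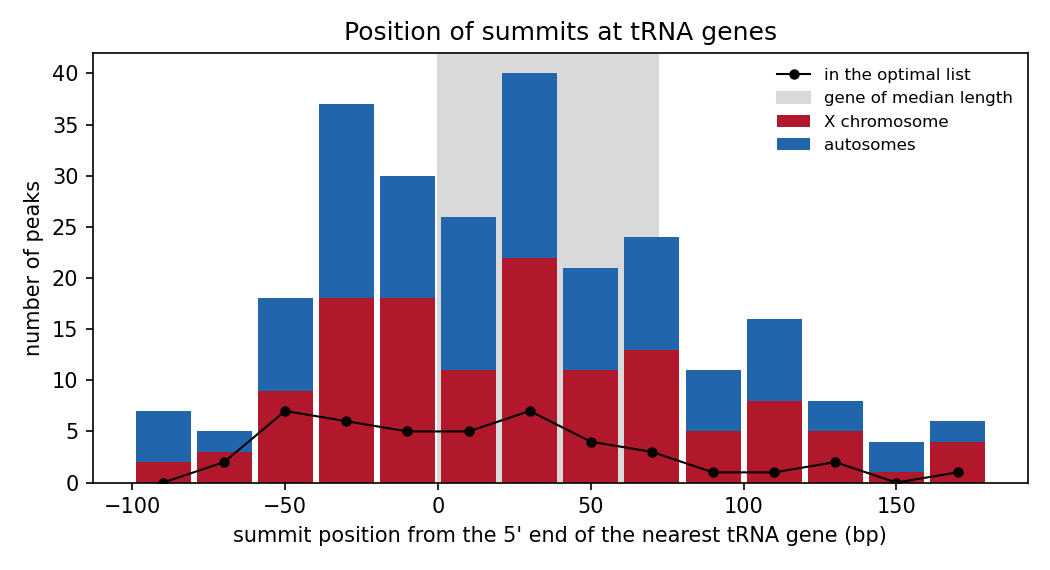
Number of members (vertical axis) by position of the summit from the 5′ end of the nearest tRNA gene in 20 bp bins (horizontal axis, bp, negative is upstream), stacked for X and autosomes, with the line showing members in the optimal list and grey a gene of median length. The bins from 20 to 39 bp and from -40 to -21 bp are the fullest, with 40 and 37 summits.

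Within 50 bp of the summit the B box core was found at 106 of 253 members (41.9%), and at 4.22% of all nuclear pooled peaks. Most of this follows from choosing summits at tRNA genes, and the core is a description of these letters. With 1 mismatch allowed the shares were 72.7% of members and 49.7% of other peaks, so the contrast depends on the spelling. A further motif, GAGAGA on either strand, was found within 50 bp of the summit at 35 of 253 members (13.8%), where 9.89% of all nuclear pooled peaks had it. Among optimal peaks it was 15 of 44 members (34.1%, 21.9 to 48.9) and 94 of 344 others (27.3%, 22.9 to 32.3). The 35 members with GAGAGA had a median signal of 67.4, and those without it 51.6.

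A smaller share of members than of other peaks lay near the start of a protein-coding gene. From 1000 bp upstream to 500 bp downstream of such a start lay 74 of 253 members (29.25%) and 39.65% of other peaks. In the optimal list the split was wider, with 11 of 44 members (25%, 14.6 to 39.4) and 204 of 344 other peaks (59.3%, 54.0 to 64.4). On X it was 6 of 34 optimal members (17.65%) and 39 of 88 others (44.3%). On the autosomes it was 5 of 10 optimal members (50%, 23.7 to 76.3) and 165 of 256 others (64.45%, 58.4 to 70.1), with overlapping intervals. The split over all chromosomes also reflects that X held 34 of the 44 optimal members and 88 of the 344 others. These differences were not tested. Most optimal members thus had no protein-coding start in that window.

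Amino acid identity, taken from the RefSeq products matched by gene ID, was known for 607 of the 612 tRNA genes. All 20 standard amino acids had a gene with a peak, and 19 had one with an optimal peak. The 1 selenocysteine gene had a peak as well, with a pooled signal of 27.5 at rank 10006, near the lowest of the list (27.09). That peak had 14.9 in replicate 1, no summit within 100 bp in replicate 2 and no place in the optimal list. Of the standard amino acids, cysteine had the highest share with 9 of 13 genes (69.2%), followed by alanine with 20 of 34 (58.8%), threonine with 19 of 34 (55.9%) and isoleucine with 16 of 29 (55.2%). Glycine, the largest family with 55 genes, had 30 (54.55%). The lowest were phenylalanine with 3 of 14 (21.4%), histidine with 5 of 20 (25%), valine with 9 of 31 (29.0%) and glutamine with 8 of 27 (29.6%). The Wilson intervals are wide, and those of the highest and lowest of these families overlap slightly, at 42.4 to 87.3 for cysteine and 7.57 to 47.6 for phenylalanine.

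An optimal peak lay at 6 of 34 alanine genes (17.65%, 8.35 to 33.5), against 8.01% of all tRNA genes. It lay at 4 of 29 isoleucine genes (13.8%), 4 of 39 serine (10.3%), 4 of 44 arginine (9.09%) and 4 of 46 lysine genes (8.70%). No phenylalanine gene had one, a count of 0 in 14 that puts the upper limit on the share at 21.4%. The share with a pooled peak was higher on X than on the autosomes for 17 of the 20 amino acids and lower for arginine, isoleucine and valine. Glycine had 15 of 20 genes on X and 15 of 35 on the autosomes. Arginine had 9 of 27 on X and 9 of 17 on the autosomes. Some of the differences counted were very small, as in glutamate with 9 of 23 on X (39.1%) and 7 of 18 on the autosomes (38.9%). The families are small, and the difference within each was not tested.

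**Figure D5:**
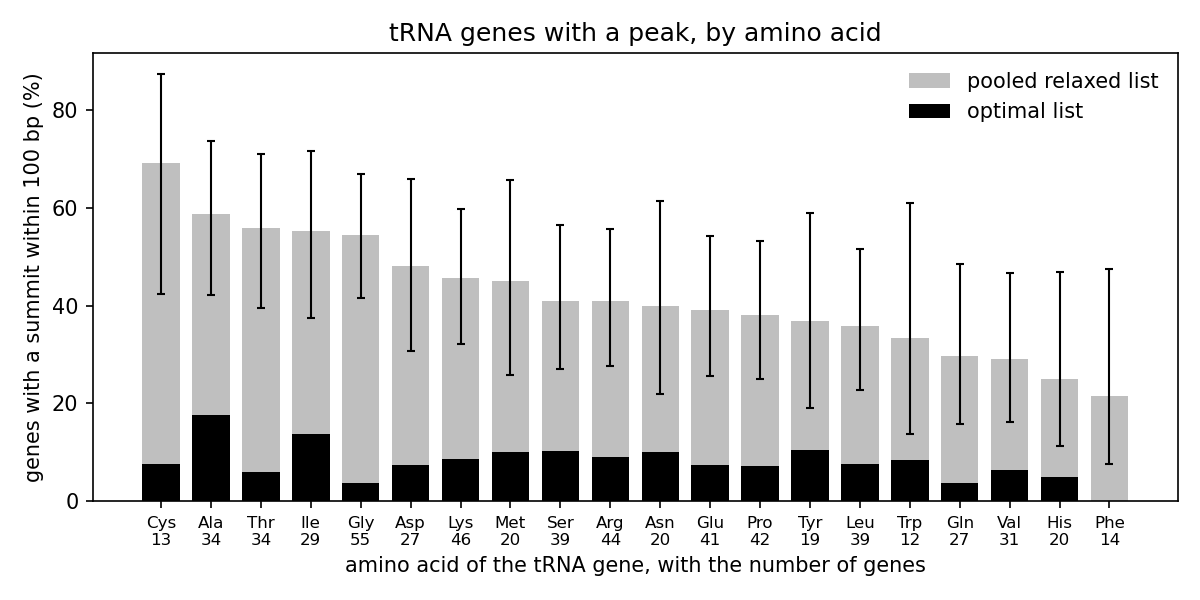
Share of nuclear tRNA genes with a summit within 100 bp (%, vertical axis) for each of the 20 standard amino acids, with the number of genes under its name; grey bars are the pooled relaxed list with 95% Wilson intervals, which cover counting error only, and black bars the optimal list. Among these, cysteine is highest at 69.2% and phenylalanine lowest at 21.4%, with intervals that overlap slightly.

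Many tRNA genes are identical in sequence, and 469 of 612 (76.6%) have at least 1 exact copy elsewhere. Genes with no copy had a peak in 40 of 143 cases (28.0%, 21.3 to 35.8). Genes in sets of 2 to 9 had one in 69 of 152 (45.4%, 37.7 to 53.3) and those in sets of 10 or more in 155 of 317 (48.9%, 43.4 to 54.4). Optimal peaks lay at 2.80%, 9.21% and 9.78% of these genes. Genes with no copy were lowest also on X, where the counts were 17 of 57, 35 of 65 and 83 of 154, and on the autosomes, where they were 23 of 86, 34 of 87 and 72 of 163. How reads that match several copies were placed is not given in the sources used here, and its part in these shares was not tested. Median signal hardly varied, at 50.8, 55.6 and 51.0.

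The shares with a peak were alike inside and outside protein-coding genes, within counting error. Of 290 tRNA genes within a protein-coding gene, 121 had a peak (41.7%), and 143 of the 322 outside one (44.4%). It was 63 of 166 (38%) where the host lies on the same strand and 58 of 123 (47.2%) where it lies on the opposite one, with intervals of 30.9 to 45.5 and 38.6 to 55.9. Genes with 2 exons had a peak in 11 of 29 cases (37.9%).

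Beside tRNA genes, 25 of 129 small nuclear RNA genes (19.4%) and 91 of 346 small nucleolar RNA genes (26.3%) had a pooled summit within 100 bp. Their shares with an optimal peak were 6.20% and 8.96%, near the 8.01% of tRNA genes. The count was 0 for 20 ribosomal RNA genes, with an upper limit on the share of 15%. Protein-coding genes of the RNA polymerase III pathway were taken as a list of 19, with polymerase subunits, initiation factors and tRNA processing and export factors. Summits were counted from 1000 bp upstream to 500 bp downstream of a start. None of the 19 had an optimal summit, against 281 of all 19973 nuclear protein-coding genes (1.41%). A pooled summit was found at 6 of the 19, against 4005 of the 19973 (20.05%). The list is too short to read a difference from either share. These 6 were tftc-1, a TFIIIC subunit (signal 59.45), rtcb-1, the tRNA ligase (41.9), tbp-1, the TATA-binding protein (30.9), rpac-19 (28.7) and rpc-11 (27.9), polymerase subunits, and xpo-3, a tRNA exportin (27.6). All but tftc-1 lay below the median of the peaks at tRNA genes. The median of all nuclear pooled peaks was 33.5, with tftc-1 and rtcb-1 above it and the others below.

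Few peaks lay close to the limit of 100 bp. The 5 members at 96 to 100 bp from a gene had signals of 28.3 to 81.5. The 2 peaks just outside, both at 105 bp, were near F22B7.t4 with a signal of 27.1 and near F18G5.t1 with 87.4, which is in the optimal list.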

How the data were processed

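The data were peak lists on build ce11 for 2 replicates. Per the labels, chromatin was sheared by sonication. The authors deposited a relaxed list per replicate and a relaxed list of peaks and background from pooled replicates. They also deposited an optimal list thresholded on the irreproducible discovery rate. The signal of each peak was deposited as the authors' caller gave it. A −log10 q-value for each peak, deposited by the authors, was not used. Which aligner, caller and thresholds were used is not stated in the sources at hand. The lists hold no read counts, so the depth is unknown. The ce10 lists and the control were not used here.

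Summits were placed on the reference genome WBcel235 with Ensembl annotation release 115. A pooled peak was matched in a replicate by the nearest summit within 100 bp. Intervals are Wilson intervals at 95%, and where a count was 0 the limit is 3 counts of the total. Both cover counting error only. With 1 group and no condition to compare, no test was made. Scripts were tested on simulated data. Tables were handled with pandas 2.3.3 and numpy 2.4.6 in Python 3.11.15, intervals with SciPy 1.17.1, and plots with matplotlib 3.10.9.

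The members, lists and windows were chosen with earlier results of these data known. The genes named are those nearest the 5 strongest members on X and the 5 on the autosomes, members in the optimal list (up to 30 by signal) and the 3 weakest. Sequences were limited to 1 per amino acid and to genes off chromosome I that share no stretch of 30 bases with it, the last a limit added after the data were seen. The alternatives were other distances, the optimal list, the pooled peaks above the median signal, other windows and core spellings, and leaving out each replicate.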

Additional observations from a re-analysis of the deposited data

How the results depend on the processing

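Of 54 recomputed values, 35 moved by less than the spread used as a yardstick or by less than 1.5 times for counts and 19 moved by more. With summits required inside the gene there were 106 peaks at 106 genes, with a median position of 35.0 bp and the core at 78.3%. With a distance of 50 bp the core was at 48.2%, and with 200 bp the median position was 25 bp. In the optimal list alone there were 44 peaks at 49 genes, 77.3% on X, 93.2% in both replicates, with a median signal of 99.6 and a median position of 6.5 bp. Among members above the median signal of the pooled list 66.1% were in both replicates. Matching replicate summits within 50 bp gave 37.55% in both, and within 200 bp 72.7%. The core was found at 83.0% of members and 6.71% of other peaks within 100 bp of the summit, and at 72.7% and 49.7% with 1 mismatch. Using a single replicate's list in place of the pooled one gave median signals from 23.7 to 32.2, on the scales of those lists. The number of members and the share on X moved by less than the limits above when either replicate was left out, at 226 to 256 members and 50.9% to 55.1% on X.

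No paired analysis was possible because there was 1 group. The depth is unknown, so a tRNA gene without a summit is one where none was detected, and absence of binding is not shown. The control was not used here.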
